A study of Mus musculus with 2 samples.

Results

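The HOX genes are described here through the ELF1 peaks at their start sites and across their 4 clusters. Members were the protein-coding genes whose symbol is Hox followed by a cluster letter from a to d and a number. This gave 39 of the 20564 protein-coding genes with a known strand on chromosomes that carry peaks. HoxA on chromosome 6 holds 11 of them, HoxB on chromosome 11 holds 10, and HoxC on chromosome 15 and HoxD on chromosome 2 hold 9 each.

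The measurements were ChIP-seq peak lists for the transcription factor ELF1 in CH12.LX, an immortalized B-cell lymphoma line from a female mouse of the strain B10.H-2aH-4bp/Wts. ChIP-seq sequences the DNA that an antibody, here against ELF1, brings down from chromatin. The 2 samples were biological replicates of 1 group, with no treatment, no time course and no second cell type, and both replicates came from 1 donor's line. The lists on the mm10 build held 29086 peaks in the optimal set, 27399 in the conservative set and 300000 entries of peaks and background in the relaxed list of each replicate, and the list on the older mm9 build held 18804 peaks. Peak signal is given in the caller's own units, whose scale is not stated, so it ranks peaks within a list and is not compared between lists. Read depth is unknown from peak lists, the intervals on shares cover counting error only, and gene expression was not measured.

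HOX genes encode homeodomain transcription factors that give cells their position along the body axis. They lie in clusters in the order in which they act, from the anterior genes to the posterior genes, and Polycomb complexes keep them silent where they are not used while Trithorax and MLL complexes keep them active. Their start regions are rich in CpG dinucleotides, and several of them act in blood stem and progenitor cells. ELF1 is an ETS factor, a family that binds DNA around a GGAA core, and is known in lymphocytes. The cell line was checked against markers by promoter status, since peaks do not measure expression. All 8 B cell markers examined were bound at the 5′ end on the optimal list, by the distance limit of 1 kb used for HOX genes, Cd79b at a signal of 257 and Pax5 at 16.0 being the highest and lowest. None of 5 T cell, 5 myeloid or 3 erythroid markers had one.

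ELF1 peaks were present at few HOX start sites. A gene was counted as bound where a peak had its summit at most 1 kb from the 5′ end. On the optimal mm10 list 5 of 39 HOX genes were bound, or 12.8% (95% exact interval 4.3 to 27.4%), against 40.3% of all genes tested. Among the bound genes were Hoxb4, Hoxa10, Hoxc10 and Hoxb6, and HoxA and HoxB had 2 each, HoxC had 1 and HoxD had none. The other 34 had no optimal summit that close. They included Hoxa3, Hoxa5, Hoxa6, Hoxa7, Hoxa9, Hoxa11 and Hoxa13 of HoxA, and Hoxb1, Hoxb2, Hoxb3, Hoxb5, Hoxb7, Hoxb8, Hoxb9 and Hoxb13 of HoxB. In HoxC they were Hoxc4, Hoxc5, Hoxc6, Hoxc8, Hoxc9, Hoxc11, Hoxc12 and Hoxc13, and in HoxD all 9 genes, Hoxd1, Hoxd3, Hoxd4, Hoxd8, Hoxd9, Hoxd10, Hoxd11, Hoxd12 and Hoxd13.

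Hoxb4, a factor known for its part in the expansion of blood stem cells, had the strongest promoter peak of the family. Its summit lay 386 bp downstream of the 5′ end at position 96318267 of chromosome 11 (mm10), at a signal of 169 and rank 2993 of 29086. Replicate 1 gave an entry there with a signal of 62.9 and replicate 2 with 106. These entries held ranks 3733 and 2621, ahead of every other HOX 5′ end in either replicate.

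Hoxa10, a posterior gene that also acts in blood progenitors, had a signal of 68.0 at 333 bp downstream of its 5′ end (chromosome 6, position 52240854), and the replicates gave 33.2 and 33.5, at ranks 7395 and 10168 of their own lists. The peak stood at rank 8319, near the middle of promoter peaks by signal: the median over the 5 bound HOX genes was 68.0, beside 68.7 over all optimal promoter peaks.

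Hoxc10 and Hoxb6 had the weakest of the promoter peaks. At Hoxc10, a posterior gene of trunk and hindlimb levels, the signal was 45.2 at 228 bp upstream of the 5′ end (chromosome 15, position 102966796), and the replicates gave 14.4 and 30.5. At Hoxb6, a gene of the central trunk, it was 43.4 at 61 bp downstream (chromosome 11, position 96292814), and the replicates gave 11.1 and 33.2. By rank within its own list each stood lower in replicate 1, Hoxc10 at 18038 against 11234 in replicate 2 and Hoxb6 at 25023 against 10243. All 5 genes were still bound when summits had to lie within 500 bp, where 37.1% of all genes were bound, among the stronger 50% of optimal peaks, where 32.6% were, and with the conservative list, where 39.7% were. The 29086 strongest entries of replicate 1 alone (40.8% of all genes bound) and of replicate 2 alone (41.1%) also gave 5 HOX genes each. Optimal peaks with a summit in both replicates gave 5 too, with 38.2% of all genes bound.

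Hoxc4, which is known as an activator of the gene for the antibody-diversifying enzyme AID in B cells, carried its peaks at a second start. The count above used 1 start for each gene. Adding the other starts in the RefSeq promoter table brought 43.7% of all genes and 6 HOX genes to a bound status, the added gene being Hoxc4. Its downstream start at 103034395 on chromosome 15 had a summit 202 bp upstream with a signal of 54.2 (22.5 and 29.1 in the replicates). A weaker summit 220 bp downstream had 31.3 and was seen in replicate 2 at 21.0, with no replicate 1 summit within 100 bp. At the 5′ end of Hoxc4 itself the replicates had only weak relaxed entries, of 5.38 and 8.78.

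Hoxc6 and Hoxd4 lay just outside the limit. Hoxc6, a gene of thoracic levels, had a strong summit 1094 bp downstream of its 5′ end with a signal of 171, and the replicates gave 83.5 and 87.5. Hoxd4, a gene of the hindbrain and neck, had one at 1039 bp downstream with a signal of 35.4 (11.0 and 24.4) and another 1374 bp upstream with 78.0 (35.8 and 44.4). The distance limit therefore leaves out a peak about as strong as that of Hoxb4. With a limit of 2 kb 7 HOX genes were bound, against 43.3% of all genes.

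**Figure D1:**
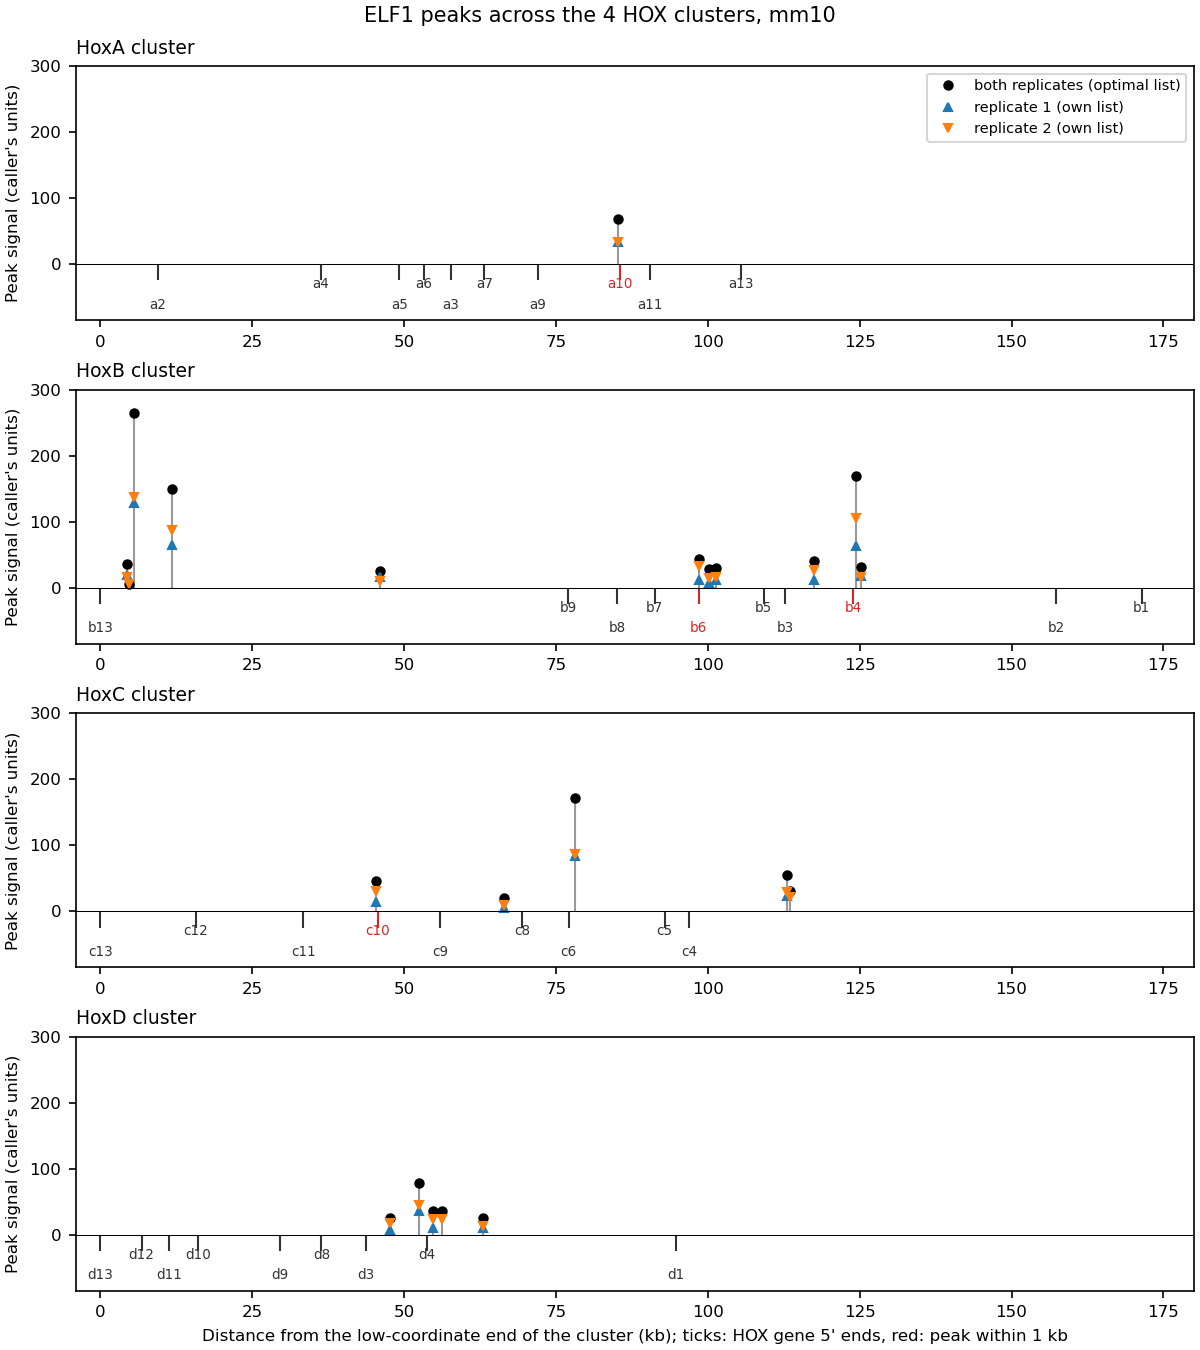
ELF1 peaks across the 4 HOX clusters on mm10. The horizontal axis is distance from the low-coordinate end of each cluster in kb, the vertical axis is peak signal in the caller's units, black points are optimal peaks, triangles are the matching entries of each replicate's own list, and ticks mark the plotted HOX 5′ ends, in red where a summit lies within 1 kb. The strongest points, at 265, 171 and 169, stand between Hoxb13 and Hoxb9, at Hoxc6 and at Hoxb4, and the HoxD ticks are all black.

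The relaxed lists show what lay below the optimal set. They hold background as well as peaks, so an entry is not a call. Replicate 1 had an entry within 1 kb of 19 of 39 HOX 5′ ends (48.7%, against 59.6% of all genes), and replicate 2 also had 19 (against 59.3%). A relaxed list made from both replicates together, also of 300000 entries, had one at 14 (35.9%, against 59.6%). Its median rank of the strongest entry was 53768 for HOX genes and 11790 for all genes. Both replicates had an entry at 13 HOX genes (33.3%, against 52.8% of all genes) and neither had one at 14 (35.9%, against 33.9%). Replicate 1 alone had one at 6 (15.4%, against 6.8%) and replicate 2 alone at 6 (15.4%, against 6.51%). Where an entry was present it was mostly weak: the median rank of the strongest entry was 88029 for HOX genes against 11992 for all genes in replicate 1, and 82749 against 11649 in replicate 2. Hoxa3, an anterior gene, came closest to the strongest 29086 without reaching them, with ranks 30530 and 44962 and signals of 9.45 and 9.32. Hoxd4 had signals of 7.94 and 6.94 there. The 14 genes with no entry in either replicate included Hoxa6, Hoxa9, Hoxa11, Hoxa13, Hoxb5, Hoxb9 and Hoxb13.

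**Figure D2:**
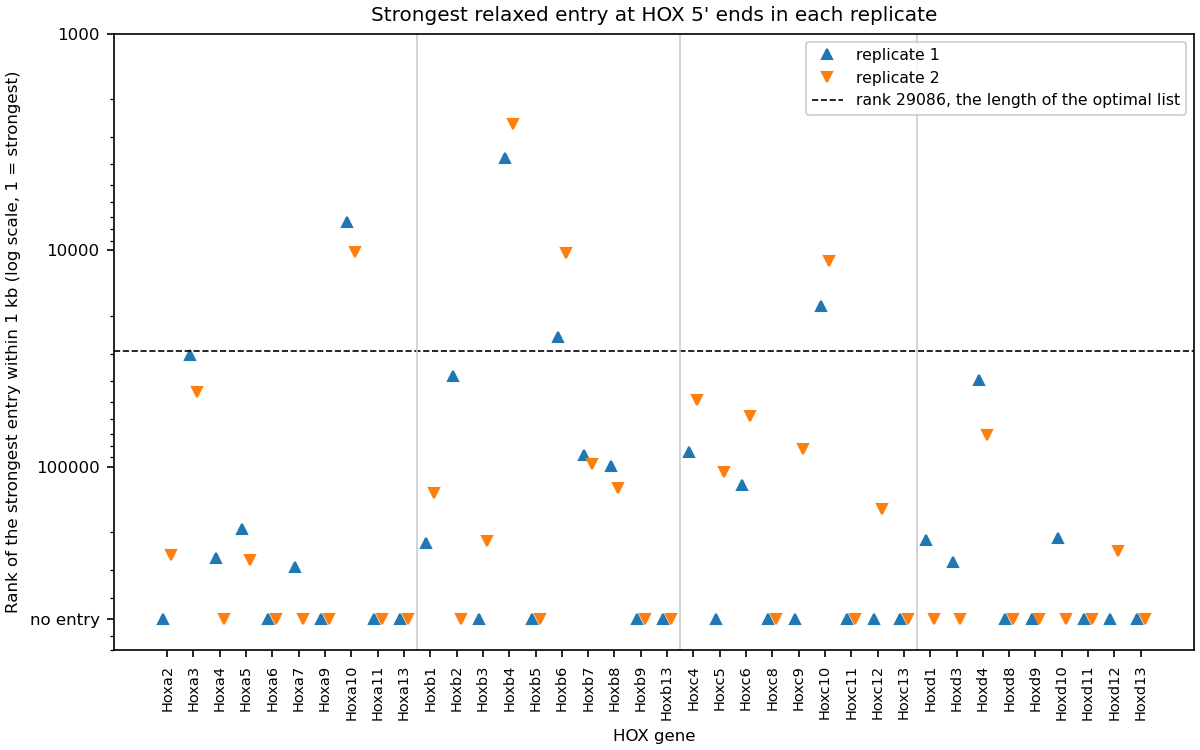
Rank of the strongest relaxed entry within 1 kb of each plotted HOX 5′ end, on a log scale with 1 the strongest of 300000. Upward triangles are replicate 1, downward triangles are replicate 2, genes are ordered by cluster, and the dashed line is rank 29086. Hoxb4, Hoxa10, Hoxc10 and Hoxb6 lie above the line in each replicate, while 14 genes have no entry in either.

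The older mm9 list was read with every protein-coding transcript start of GENCODE M1 and again gave 5 of 39 HOX genes, against 36.2% of all genes, but not all the same genes. Hoxa10 had a signal of 80.1 at 333 bp downstream, Hoxc4 had 64.3 at 204 bp upstream of its start at 102864826, and Hoxa7, a gene of trunk levels, had 45.0 at 58 bp upstream. Hoxc10 had 40.5 at 183 bp upstream. Hoxa10 and Hoxc10 were thus among the genes bound on both lists, and Hoxc4 was too once its second start was counted on mm10.

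Hoxb4 and Hoxb6 were not bound on mm9, and no HoxB or HoxD gene was. The annotations place the Hoxb4 5′ end differently: on mm9 the strong peak, with a signal of 241, lay 1957 bp downstream of it. No mm9 peak lay within 12 kb of a Hoxb6 start, the nearest being 12791 bp away. Hoxa7, unbound on mm10, had a conservative peak of 36.6 at 3416 bp upstream of its RefSeq 5′ end that matches its mm9 peak by spacing. With the strongest summit of each cluster taken as the same site on both builds, 8 of the 10 other mm9 peaks had an optimal mm10 peak at the same spacing within 100 bp, and 10 of 10 had one when conservative peaks were added. With a limit of 2 kb the mm9 list gave 8 HOX genes, against 38.0% of all genes, and its stronger 50% of peaks gave 1, against 26.7%. The identity of a bound HOX gene therefore rested partly on which start the annotation gives.

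By place in the clusters, 2 of the 15 central genes (groups 4 to 8) were bound at the 5′ end on the optimal list. So were 2 of the 16 posterior genes (groups 9 to 13), against 40.3% of all genes. With the promoter table starts added, the bound central genes numbered 3 and the posterior genes 2, against 43.7% of all genes. On mm9, by any protein-coding start, 2 of each were bound, against 36.2% of all genes. Hoxa10 and Hoxc10 are paralogues, members of the same group in different clusters, and both were bound on both lists, whereas Hoxd10 was bound on neither.

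HOX start regions were also bound less often than other promoters of equal CpG ratio. The ratio is the number of CpG dinucleotides over that expected from base content, taken over 500 bp to each side of the 5′ end on mm9. Its median was 0.626 over the 39 HOX genes, from 0.256 at Hoxd4 to 0.996 at Hoxa5, beside 0.55 over 22189 other genes. The median GC content was 55.8% for HOX genes and 54.8% for the others. Among other promoters the share bound rose with the CpG ratio, from 6.97% in the bin from 0.2 to 0.3 to 64.8% in the bin from 0.8 to 0.9.

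By gene 5′ end alone 4 of 39 HOX promoters were bound on mm9 (10.3%, exact interval 2.87 to 24.2%), against 34.4% of all genes. Other promoters in the same CpG bins would give 16.9, or 43.2%, which is above the upper bound of that interval. The number bound was 0.237 of the number so given. The 4 bound HOX promoters, which include Hoxa10, Hoxc10 and Hoxa7, had ratios between 0.571 and 0.691. At a ratio of 0.6 and above 2 of 21 HOX promoters were bound (9.52%) against 60.4% of 10142 others. At 0.8 and above none of 7 was bound against 64.4% of 4564, and these were Hoxa5, Hoxa13, Hoxa4, Hoxd13, Hoxc12, Hoxb9 and Hoxd1.

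On mm9 the HOX promoters bound at the 5′ end carried weak peaks for their CpG ratio. This set lacks the strong Hoxb4 peak, of 241, which lay 1957 bp downstream of the 5′ end given on mm9. On mm10, without matching for CpG ratio, the median signal of bound HOX promoters lay close to that of all promoter peaks (68.0 and 68.7). The 4 mm9 signals ran from 37.3 to 80.1 with a median of 42.8. Other promoters bound at the 5′ end with a CpG ratio from 0.5 to 0.7, the bins that hold these 4, had a median of 147 and quartiles of 71.6 and 327 over 1963 genes. No test was made of either difference, because the members were chosen with earlier results of these data known.

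**Figure D3:**
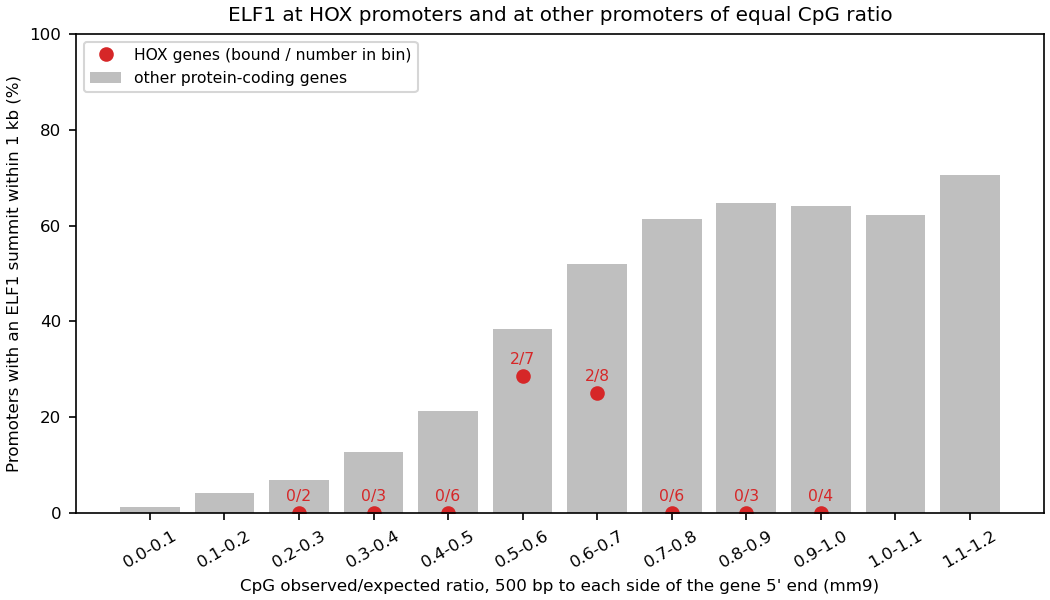
Share of promoters with an mm9 ELF1 summit within 1 kb of the gene 5′ end, in percent, by CpG observed over expected ratio in bins of 0.1. Grey bars are other protein-coding genes, and red points are HOX genes with the number bound over the number in the bin. The bars stand at 6.97% in the bin from 0.2 to 0.3 and at 64.8% in the bin from 0.8 to 0.9, while the red points stand at 2 of 7 and 2 of 8 in the bins from 0.5 to 0.7 and at 0 in every other bin that holds a HOX gene.

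The letters of an ETS site were present in some unbound HOX promoters. Either strand was searched for the word CCGGAAG up to 500 bp from the 5′ end, together with the shorter CCGGAA that lies within it. CCGGAAG was found at 4 HOX promoters (10.3%), where the same CpG bins would give 9.37, and at 19.1% of other promoters. CCGGAA was found at 10 HOX promoters (25.6%), where the bins would give 16.5, and at 33.8% of others. None of the 4 HOX promoters with CCGGAAG was bound at its 5′ end on mm9, whereas 71.0% of the 4247 other promoters with the word were. Counting promoters with the same word status as well as the same CpG bin, 15.3 HOX promoters would be bound, beside the 16.9 given by the CpG bins alone. The 4 words at promoters with no summit within 1 kb of the 5′ end are printed. Each is in capitals with 10 bases to each side. CTTCCGG is the same word read on the other strand.

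Hoxa11, chr6:52196543-52196569 (mm9, + strand): gacgaaggccCTTCCGGacagcgcgga
Hoxc6, chr15:102828794-102828820 (mm9, + strand): ggtggagttgCCGGAAGctgggggcac
Hoxc9, chr15:102806966-102806992 (mm9, + strand): ggtaccaagtCTTCCGGgcctctgctt
Hoxd3, chr2:74550153-74550179 (mm9, + strand): ggcggggagcCCGGAAGgagccccggg

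The Hoxa11 word lies 346 bp upstream of the 5′ end, and those of Hoxc6, Hoxc9 and Hoxd3 lie 116, 106 and 177 bp downstream. At Hoxc6 a strong mm9 summit, of 229, lay 1084 bp downstream of the 5′ end, just outside the limit. Hoxa11 and Hoxc9, both posterior genes, had CpG ratios of 0.675 and 0.651, in a bin where 52.0% of other promoters were bound. A match is a description of the reference sequence, and no match says only that the letters are not in the window.

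Across the clusters as a whole, ELF1 peaks were not scarce by length of DNA. The 4 clusters, each taken from its outermost HOX gene end to the other, span 492 kb and held 24 optimal summits, or 4.88 per 100 kb, beside 1.11 per 100 kb over the whole list. HoxB held 11 (6.32 per 100 kb, with 2.75 over chromosome 11), HoxC held 5 (4.32, with 1.21 over chromosome 15), HoxD held 5 (5.16, with 1.13 over chromosome 2) and HoxA held 3 (2.84, with 0.916 over chromosome 6). All 4 clusters were thus above their chromosomes, and each packs 9 to 11 HOX genes into 96.9 to 174 kb. By number of genes the order was the reverse. The clusters held fewer summits (24) than HOX genes (39), whereas the whole list held more summits (29086) than genes tested (20564). The mm9 list gave 14 summits, 4 in HoxA, 4 in HoxB, 3 in HoxC and 3 in HoxD, or 2.85 per 100 kb beside 0.708. The relaxed entries stood at 32.9 and 30.3 per 100 kb in the replicates, beside 11.4 in each whole list.

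Most of these 24 peaks lay over 1 kb from a HOX start site. Those within 1 kb of any HOX start, the second start of Hoxc4 included, numbered 7, and 5 (20.8%) were within 1 kb of a HOX 5′ end, whereas 31.9% of all optimal peaks were within 1 kb of a protein-coding 5′ end, and 13 lay 1 to 5 kb and 6 over 5 kb from the nearest HOX 5′ end. The last group includes the 2 peaks at the second start of Hoxc4. Within the bounds of a HOX gene lay 16, and 5 lay outside any gene. The median signal was 36.1 beside 39.7 over the whole list, with 13 of 24 in the lower 50% and 1 in the strongest 10% of the list. In both replicates' relaxed lists 21 had a summit within 100 bp, and the share over all optimal peaks was 85.4%. The 3 others were found in replicate 2 alone.

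The strongest peak of any cluster stood in HoxB, not at a HOX promoter. It spans 96199724 to 96199908 on chromosome 11 (mm10), lies within the gene Gm30134 and 5519 bp past the 5′ end of Hoxb13, and had a signal of 265 at rank 1497. The replicates gave 129 and 137. Another peak in the long gap between Hoxb13 and Hoxb9, 11765 bp past the 5′ end of Hoxb13, had 149 (65.3 and 86.7), and the Hoxb4 promoter peak came between them. Hoxb13, a posterior gene known in prostate and tail development, had no entry at its own 5′ end in either replicate.

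In HoxC the Hoxc6 peak, at 102999261 to 102999430 within Hoxc6, led with 171, followed by the Hoxc4 downstream start at 54.2 and the Hoxc10 promoter at 45.2. In HoxD all 5 summits fell within Hoxd3 as RefSeq bounds it. The strongest was that of 78.0 upstream of Hoxd4, at 74720422 to 74720785, and the next, 2432 bp downstream of the Hoxd4 5′ end, had 35.8 and was seen in replicate 2 at 24.0, with no replicate 1 summit within 100 bp. The peak of 35.4 just outside the Hoxd4 limit was the third. In HoxA the Hoxa10 promoter peak of 68.0 was among the 3 optimal summits.

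The sequences at the summits were read on mm9, the build of the available genome. CCGGAAG lay within 50 bp of the summit at 2 of 14 cluster peaks, against 18.8% of all mm9 peaks, CCGGAA at 3 of 14 against 26.2%, and the GGAA core at 12 of 14 against 92.6%. Both CCGGAAG matches were in the pair of strong HoxB peaks between Hoxb13 and Hoxb9, whose mm9 signals were 417 and 228. The remaining CCGGAA match was in the Hoxa10 promoter peak, and 2 of the 14 held no GGAA. The sequences printed are the 101 bases around the strongest summits of HoxB, HoxC and HoxD and around the other HoxB peak with the full word. Capitals mark the longest of the 3 words found, on either strand.

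HoxB, past Hoxb13, signal 417, chr11:96061084-96061184 (mm9, + strand): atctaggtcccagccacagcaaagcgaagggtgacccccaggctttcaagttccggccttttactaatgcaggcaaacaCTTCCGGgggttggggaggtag
HoxB, farther past Hoxb13, signal 228, chr11:96067345-96067445 (mm9, + strand): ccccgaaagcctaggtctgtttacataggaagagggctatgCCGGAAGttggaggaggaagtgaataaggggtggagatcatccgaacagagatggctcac
HoxC, intron of Hoxc6, signal 229, chr15:102829722-102829822 (mm9, + strand): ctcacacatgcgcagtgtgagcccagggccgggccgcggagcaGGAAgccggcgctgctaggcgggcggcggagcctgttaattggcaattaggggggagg
HoxD, intron of Hoxd3, signal 118, chr2:74558614-74558714 (mm9, + strand): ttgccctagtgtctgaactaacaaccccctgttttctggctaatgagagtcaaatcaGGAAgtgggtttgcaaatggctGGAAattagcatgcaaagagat

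The 2 HoxB windows are annotated as intergenic in GENCODE M1. The HoxC and HoxD windows are intronic and hold the core without the full word. The CpG ratio over 1 kb around these summits was 0.529 and 0.289 for the HoxB pair, 0.483 for HoxC and 0.109 for HoxD.

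Other homeobox genes of development, a list of 83 chosen from textbook knowledge, also had few bound members. On the optimal list 4 of 83 were bound (4.82%, exact interval 1.33 to 11.9%), and this interval overlaps that of the HOX genes. The bound members included Dlx4, a craniofacial gene, at 70.2, Lbx1, a gene of migrating muscle precursors, at 29.4, and Pitx3, a lens and midbrain gene, at 21.7. Alx1 and Alx4 were among the unbound. On mm9 1 of 83 was bound at its 5′ end, where the CpG bins would give 41.3. A low share at equal CpG ratio was thus seen in both lists.

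Genes whose products work with or upstream of HOX proteins were mixed. Of 9 TALE class cofactors, which bind DNA together with HOX proteins, 2 were bound (22.2%, exact interval 2.81 to 60.0%). That interval includes the 40.3% of all genes. The 2 were Pbx4 at 22.7 and Pbx3 at 20.9, both weak and neither bound on mm9. By 5′ end on mm9 1 of the 9 was bound, where the CpG bins would give 3.65. Meis1, Meis2 and Meis3 were not bound on the optimal list, although Meis3 had a peak of 109 on mm9. None of the 3 CDX genes, activators of HOX genes in the embryo, was bound, which leaves an exact interval up to 70.8%.

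The genes for the complexes that silence or maintain HOX genes were mostly bound. Of 30 Polycomb genes 23 were bound (76.7%, exact interval 57.7 to 90.1%), led by Pcgf2 at 479, Pcgf1 at 259 and Pcgf3 at 142, which encode partners of the RING proteins, and the histone-binding subunit gene Rbbp4 at 128. The Pcgf2 peak is shared with the promoter of Psmb3 and the Rbbp4 peak with that of Zbtb8os. Pcgf2 and Pcgf1 were not bound at any start on mm9, while Pcgf3 and Rbbp4 were. Aebp2, Cbx2 and Cbx7 were among the unbound on the optimal list, although on mm9 Aebp2 had a peak of 53.4 and Cbx7 of 55.9.

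Of 16 genes of Trithorax and MLL complexes or linked to them, 12 were bound (75.0%, 47.6 to 92.7%). Dot1l, the H3K79 methyltransferase, stood at 205, the methyltransferase gene Kmt2b at 144, and the genes of the shared core subunits Wdr5 and Rbbp5 at 157 and 143. Dpy30, Kdm6a and Kmt2d were unbound on the optimal list, although all 3 had a peak on mm9, of 56.6, 43.7 and 53.3. Both intervals lie above the 40.3% of all genes, and the HOX interval lies below it. On mm9 19 of 30 Polycomb and 13 of 16 Trithorax and MLL genes were bound at the 5′ end, where the CpG bins would give 16.7 and 8.91. At equal CpG ratio the Polycomb number was thus near that of other promoters.

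**Figure D4:**
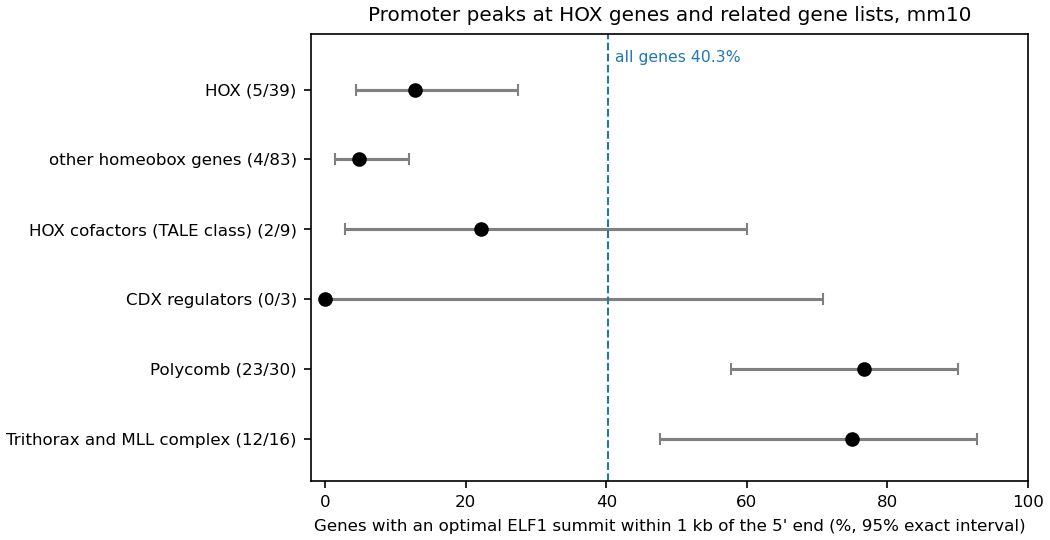
Share of each list's genes with an optimal ELF1 summit within 1 kb of the 5′ end, in percent. Points are shares, bars are 95% exact intervals, numbers are genes bound over genes in the list, and the dashed line is the 40.3% of all genes. HOX genes (12.8%) and other homeobox genes (4.82%) lie left of the line with their whole intervals, and Polycomb (76.7%) and Trithorax and MLL genes (75.0%) lie right of it.

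Of the nearest protein-coding neighbours on each side of the clusters, 3 were bound on the optimal list and the others were not. Over all genes 40.3% were bound, so a mix of bound and unbound neighbours is not particular to these clusters. Skap2, a leukocyte adaptor gene 143 kb from HoxA, was bound at 274 (135 and 138 in the replicates). Mtx2, a mitochondrial import gene 60.7 kb from HoxD, was bound at 117 (40.0 and 76.6), and Calcoco1, 199 kb from HoxC, at 106 (46.5 and 55.7). Each of these 3 stood above every HOX promoter peak except that of Hoxb4, and Skap2 stood above that as well. Evx1 and Evx2, homeobox genes at the posterior ends of HoxA and HoxD, were not bound, nor were Ttll6 and Skap1 beside HoxB or Smug1 beside HoxC.

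Of 25 noncoding genes of GENCODE M1 within the 4 clusters, pseudogenes included, 3 had an mm9 summit within 1 kb of a start, against 6.34% of all 14906 such genes. Among them, Gm20398 had the Hoxc10 promoter peak (40.5) 830 bp upstream of its start. 1700109F18Rik, annotated as a long intergenic noncoding RNA gene in HoxD, had a peak with a signal of 54.2 at 28 bp upstream of its start. This summit also lay within the mm9 bounds of Hoxd3, a gene on the other strand, 4095 bp past the Hoxd3 5′ end.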

How the data were processed

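Per the deposited README text, the relaxed mm10 list of each replicate came from that replicate's alignments and a control. A further relaxed list came from both replicates together. At Hoxb4 and Hoxa10 its signals equal those of the optimal and conservative lists. These 2 lists were chosen by irreproducible discovery rate, a method that keeps peaks ranked alike in replicates. The authors called optimal, conservative and mm9 peaks on both replicates together. Names of the aligner and peak caller were not given in the sources used here. Signal was read from column 7 of the deposited lists, unchanged, and the summit is the peak start plus column 10.

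On mm10, 1 5′ end for each gene came from a RefSeq table of GRCm38.p6. The table lacks strand, which was taken by symbol or synonym from GENCODE M1 for 20583 of 21900 protein-coding genes (94.0%). On mm9, 22228 genes of GENCODE M1 and the matching genome were used, and no coordinates were converted between builds. Of the HOX genes, 22 had an entry in the RefSeq promoter table. No mm10 sequence was used here.

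Shares carry 95% Clopper-Pearson intervals (SciPy 1.17.1), which treat genes as independent, although genes of 1 cluster are neighbours. The members and lists were chosen with earlier results of these data known, so they are described without tests. Whole-chromosome densities use the end of the last RefSeq gene as length. Named by rule are HOX genes, the 3 strongest peaks of each cluster, cluster neighbours, noncoding genes with a peak, and of each list the 4 members with the strongest promoter peaks and the first unbound in the alphabet, at most 3. Hoxa3 and the genes listed without a relaxed entry or by CpG ratio were named after their values were seen. The calculations were tested on simulated data. Alternatives were the distance limit, peak list, peak strength, start set, CpG bins and window, and each replicate alone. The start set from the promoter table and the restriction to peaks in both replicates were chosen after seeing the data. A few items covered by this choice, with the peaks nearest to them, are not reported here or plotted, while the counts include them.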

Additional observations from a re-analysis of the deposited data

How the results depend on the processing

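Of 28 alternatives over 8 results, 23 stayed within 1.5 times the main count or within the interval of the main value, and 5 did not. On mm9 the number of bound HOX genes was 5, became 8 at 2 kb (38.0% of all genes) and 1 among the stronger 50% of peaks (26.7% of all genes), where the remaining gene was Hoxa10. The stronger 50% of peaks also took the summits in the clusters from 24 to 11 on mm10 and from 14 to 7 on mm9. A wider limit can only raise such counts and a shorter list can only lower them. The stronger 50% of optimal peaks left 5 HOX genes bound on mm10, where 32.6% of all genes were. Why the mm9 count fell further was not tested. Other homeobox genes went from 4 bound on mm10 to 1 on mm9, and the cause was not tested. The number of bound HOX promoters over that given by CpG bins was 0.237 and ranged from 0.0804 to 0.265. With each replicate left out in turn, bound HOX genes stayed at 5 and 5 on mm10, and summits in the clusters numbered 23 and 25. No paired analysis was possible because both samples belong to 1 group. The 2 replicates allow no test between samples, a weak site cannot be told from one missed at an unknown depth, and the lists do not show how many cells of the line carry a peak.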
